A study of Squalius alburnoides and Squalius pyrenaicus with 4 samples.

Results

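The microRNAs (miRNAs) described here are 5 that are known from blood and blood vessels, namely dre-miR-451 and dre-miR-144 of red cells, dre-miR-126 of endothelium, and dre-miR-143 and dre-miR-145 of smooth muscle. Their probes were chosen by name, as those that carry exactly 1 of these zebrafish names, and star strands were left out. They are 5 of 218 probes with zebrafish names on the chip, each printed in 4 spots, so 20 member spots were read on each array. RNA was labelled with the dye Cy3 and read in 1 colour, and the signal of a spot is its foreground minus its local background, in intensity units. A kept spot passed where the foreground reached 2 times the local background, and detection of a probe took at least 2 passing spots.

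The fish came from the *Squalius alburnoides* complex, small river fish of Iberia that arose by hybridization, whose P genome is that of *S. pyrenaicus* and whose A genome came from an extinct paternal ancestor. The compositions were PAA (triploid hybrid), PA (diploid hybrid), AA (diploid, not hybrid) and PP (the species *S. pyrenaicus* itself), all adult and caught in the wild. Liver, muscle and brain RNA of about 3 individuals was pooled for each composition and hybridized to 1 array, so no difference between compositions has a replicate check and no test was made. PAA and PA shared a slide, as did AA and PP, so slide and hybrid state cannot be told apart, and within each slide the place of the array cannot be told apart from ploidy or genome. Per the study's methods, PP was caught in another river than the *S. alburnoides* forms. The study describes AA fish of the complex in general as always male and PAA fish as mainly female, and gives no sex for the pooled fish. Each error below is an SE or SD over spots on the log2 scale, which measures the spread within an array only.

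In vertebrates miR-451 and miR-144 are cut from a shared primary transcript and accumulate as red cells mature, which in zebrafish needs miR-451. Fish red cells keep their nucleus, and any organ that was not emptied of blood brings them into its RNA. In zebrafish and mammals miR-126 lies within an intron of egfl7, is highest in endothelial cells and is needed for intact vessels. The clustered miR-143 and miR-145 are typical of the smooth muscle of vessels and gut. In RNA of whole organs, fewer cells of a type and less RNA per cell cannot be told apart.

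The arrays were alike in size, with 154 to 168 zebrafish probes detected and a summed zebrafish signal of 147505 to 162967. Probes named for invertebrates only were detected about as often, 63.7% to 73.1% against 70.6% to 77.1% of zebrafish probes. Their median detected signals were 230 to 330, against 168 to 234. Of these detected invertebrate probes, 52.8% were dimmer than dre-miR-451 in PAA, 61.4% in PA, 36.2% in AA and 1.5% in PP. For dre-miR-126 these shares were 50.4%, 58.3%, 36.2% and 60.9%. Detection alone therefore does not show that a signal is specific to its miRNA. Spots labelled BLANK were read as spots without a probe. At their 95th percentile they reached 103 in PAA, 209 in PA, 203 in AA and 516 in PP, and this is called the BLANK level of an array. With 32 to 40 kept BLANK spots an array, this level is set by a few bright ones. The BLANK medians were 36 to 49, and the brightest BLANK spot of PP read 795. The image software had set aside 7.68% of zebrafish spots in PAA, 19.3% in PA, 11.1% in AA and 17.1% in PP. Among probes of the dissected organs, dre-miR-122 of liver read 164 to 259 and dre-miR-206 of skeletal muscle 152 to 208. Others of the same lists were brighter. The dre-miR-192 probe of the liver list read 21326.5 to 27141.9. The dre-miR-1 probe of the muscle list read from 276 in PP, below the BLANK level there, to 1262 in PAA. The dre-miR-122 signal was below the BLANK level in PP, and that of dre-miR-206 in PA, AA and PP. Of 4 liver probes, 3 were detected in PAA and in AA, and 4 in PA and in PP. Of 6 skeletal muscle probes, 6 were detected in PAA and 5 on each other array. Of 5 brain probes, 4 were detected in PAA, in PA and in AA, and 5 in PP, with dre-miR-124 missing in AA and dre-miR-128 in both hybrids.

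Among the red cell members, the probe of dre-miR-451 was bright on the hybrids and dim on the non-hybrid forms. Its 4 spots read 375, 363, 365 and 361 in PAA. On PA they read 509, 517, 320 and 335, the first pair with a local background of 304 and 310 and the second with 91. On AA the kept spots read 169 and 159, and a further pair, 305 and 166, was set aside. The PP spots read 133, 139, 103 and 102. Every kept spot of PAA and PA lay above every kept spot of AA, and every kept AA spot above every PP spot. As geometric means of the passing spots these are 366 (SD 0.02, n = 4) in PAA, 409.8 (SD 0.38, n = 4) in PA, 164 (SD 0.06, n = 2) in AA and 118 (SD 0.24, n = 4) in PP. The spots also differed in the area the software drew, a pixel being 10 µm wide. They covered 70 to 72 pixels in PAA, 52 to 66 in PA and 61 to 91 in AA, but 1 to 5 in PP, where the signal was also below the BLANK level, as it was in AA.

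After quantile normalization over the detected zebrafish probes, dre-miR-451 ordered the arrays as PA (8.49 log2 intensity), PAA (8.34), AA (7.63) and PP (6.86). PAA and PA, neighbours in that order, overlapped in their spots, with a difference of -0.15 ± 0.19 for PAA over PA (log2, SE). Without the spots of high local background this became 0.04. Over the kept spots the remaining steps were free of overlap. For AA these were only 2, its spot of 305 being set aside. With set-aside spots included, PAA over AA was 0.64 and PA over AA 0.75. The probe was higher by 0.71 ± 0.05 in PAA over AA and by 0.86 ± 0.19 in PA over AA. Against PP it was higher by 1.48 ± 0.12 in PAA, a ratio of 2.78, by 1.63 ± 0.22 in PA, a ratio of 3.09, and by 0.77 ± 0.13 in AA. These differences over PP are not bounded from below by the blank spots, as the hybrids' own signals did not exceed the BLANK level of PP. Against the BLANK level of AA, the total-scaled signals of PAA and PA were 1.69-fold and 2.01-fold higher.

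The other red cell member, dre-miR-144, gave no level on any composition. Its spots read 68, 30, 60 and 580 in PAA, 396, 142, 27 and 29 in PA, 41, 34, 36 and 115 in AA, and 189, 273, 43 and 42 in PP. A spot passed in PAA, in AA and in PP, 1 each, and none in PA, although all 4 were kept on every array. Every one of these spots covered only 1 or 2 pixels. The bright ones had no counterpart among the other spots of the same array, or stood on a local background of 221 to 513 in PA and PP. Among the zebrafish-named probes, the red cell reading is therefore that of dre-miR-451 alone.

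**Figure D1:**
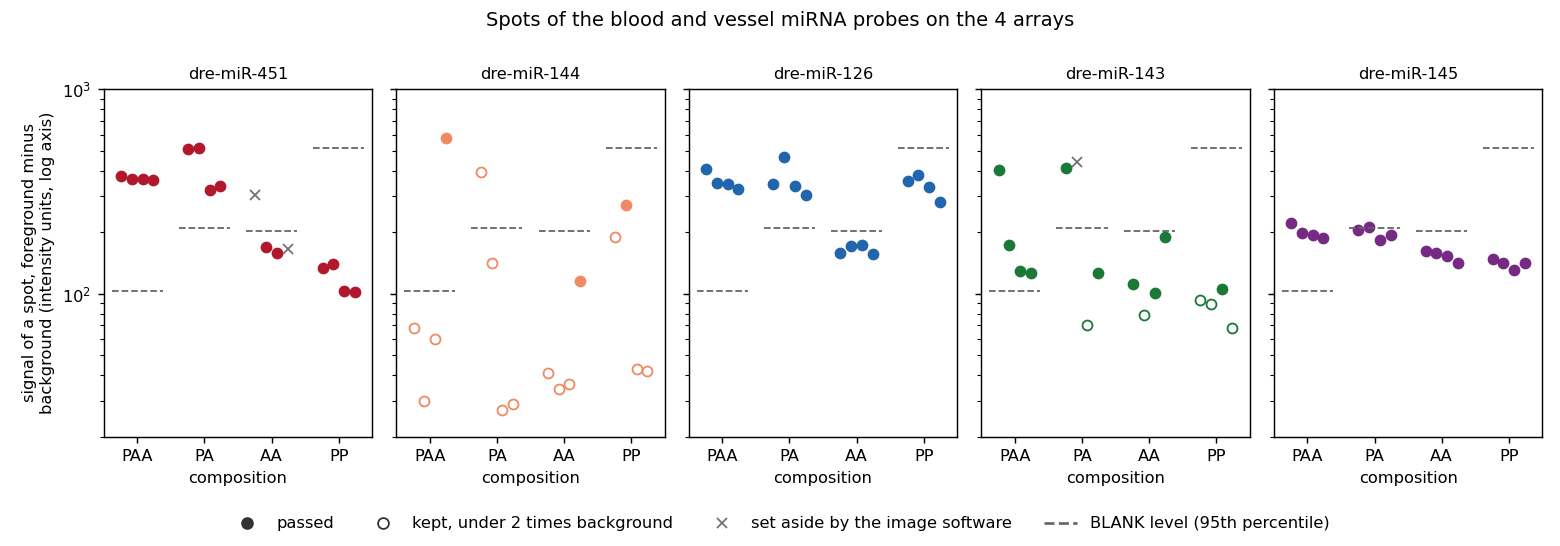
Signal of every spot of the 5 member probes (foreground minus local background, intensity units, log axis) in PAA, PA, AA and PP, left to right within a panel; filled points passed, open points were kept but under 2 times background, crosses were set aside, and dashed lines mark the BLANK level of each array (103, 209, 203 and 516). For dre-miR-451 all PAA and PA spots lie above the kept AA and PP spots, for dre-miR-126 only the AA spots are low, and dre-miR-144 has at most 1 passing spot an array.

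The endothelial member dre-miR-126 was low in AA alone. The 4 spots read 408, 348, 344 and 324 in PAA, 345, 468, 335 and 305 in PA, 159, 171, 173 and 157 in AA, and 355, 380, 332 and 282 in PP. The AA spots lay below every spot of the other arrays, and the spots of PAA, PA and PP overlapped one another. Geometric means were 355 (SD 0.14) in PAA, 358 (SD 0.27) in PA, 165 (SD 0.07) in AA and 335 (SD 0.18) in PP, with n = 4 spots on each. These spots covered 56 to 87 pixels, and none was set aside. The AA and PP means lay below the BLANK levels of their arrays.

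On the normalized scale dre-miR-126 was higher by 0.67 ± 0.08 in PAA over AA and by 0.74 ± 0.14 in PA over AA, and was lower in AA over PP (-0.70 ± 0.10). The other pairs differed by less than their SE, by -0.08 ± 0.15 in PAA over PA, -0.03 ± 0.12 in PAA over PP and 0.05 ± 0.16 in PA over PP. The differences of the hybrids over PP had no settled sign. Over the 12 processing alternatives that gave a value, they ranged from -0.68 to 0.39 in PAA and from -0.55 to 0.40 in PA. Those of dre-miR-451 over PP stayed positive in both hybrids. The total-scaled signal of dre-miR-126 exceeded the BLANK level of AA 1.64-fold in PAA, 1.76-fold in PA and 1.71-fold in PP. The size of the AA deficit depended on the scaling. With arrays scaled to their total signal it was 1.01 in PAA over AA, 1.11 in PA over AA and -1.08 in AA over PP. The medians of all zebrafish probes were then 0.20, 0.32 and -0.18 in that order.

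Of the smooth muscle members only dre-miR-145 was measured on every array. Its spots read 222, 199, 193 and 188 in PAA, 204, 212, 183 and 193 in PA, 162, 159, 153 and 142 in AA, and 148, 141, 130 and 141 in PP. The hybrids' raw spots lay above those of AA and PP, and AA and PP overlapped. The geometric means were 200.1 in PAA, 198 in PA, 154 in AA and 139.8 in PP, with SDs of 0.08 to 0.11 and n = 4, and only that of PAA exceeded its BLANK level. After normalization PAA, AA and PA (7.67, 7.55 and 7.55 log2 intensity) overlapped, and PP (7.09) lay below them. PAA over PP was 0.58 ± 0.07, PA over PP 0.46 ± 0.06 and AA over PP 0.46 ± 0.06. The differences of PAA over PA (0.12 ± 0.07), PAA over AA (0.12 ± 0.07) and PA over AA (0.00 ± 0.06) were small and their spots overlapped. The difference in AA over PP did not hold in each part of the array. It was 0.87 over the spots of the first 3 array rows and -0.08 over those of the last 3. Scaling on spots labelled Homo, of which 12 passed on all arrays, brought PAA over PP to -0.03. No source used here says what the Homo spots are.

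The spots of dre-miR-143 scattered far more than those of the other members. They read 402, 173, 129 and 127 in PAA. In PA a spot read 412, another had a foreground of 213 over a background of 87, a spot of 70 did not pass and a spot of 441 was set aside. AA gave 111, 79, 101 and 189, with the spot of 79 not passing, and PP gave 93, 89, 105 and 68, of which only that of 105 passed. The probe was hence detected in PAA (184, SD 0.78, n = 4), PA (228, SD 1.21, n = 2) and AA (128, SD 0.49, n = 3), and not in PP. Its spots overlapped in all pairs measured, with differences of -0.16 ± 0.94 in PAA over PA, 0.37 ± 0.48 in PAA over AA and 0.53 ± 0.90 in PA over AA. Over all kept spots, whether they passed or not, the geometric means were 184 in PAA, 153.7 in PA, 113.7 in AA and 87.7 in PP, and no lower bound of a fold over PP is given.

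**Figure D2:**
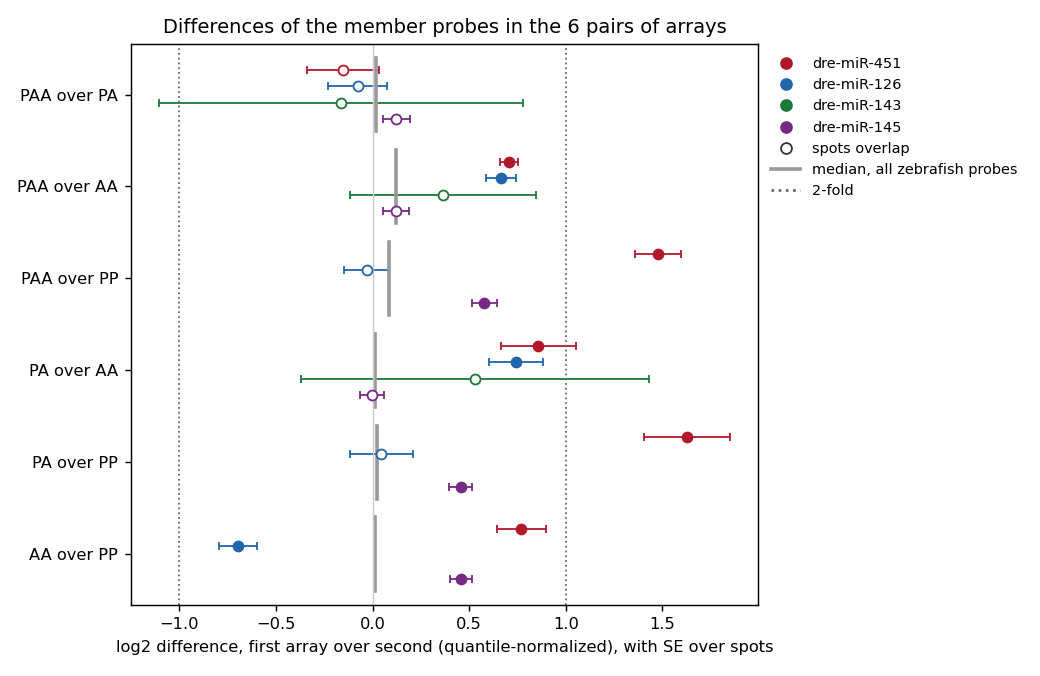
Log2 difference of each measured member in the 6 pairs of arrays, first array over second after quantile normalization, with bars for the SE over spots; filled points had spots that did not overlap between the arrays, grey bars mark the median of all zebrafish probes, and dotted lines mark 2-fold. Only dre-miR-451 in PAA over PP (1.48) and PA over PP (1.63) lies beyond 2-fold, and dre-miR-126 is the member on the negative side without overlap, in AA over PP (-0.70).

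Counts of members were read against those of all zebrafish probes detected on both arrays of a pair. Between the hybrids, 0 of 4 members lay beyond 2-fold in PAA over PA, against 3.4% of 147 probes, and 0 of 4 had spots without overlap, against 31.3%. In PAA over AA, 0 of 4 lay beyond 2-fold, against 12.1% of 140 probes, and 2 of 4 did not overlap, against 49.3%. In PA over AA these were 0 of 4, against 9.77% of 133 probes, and 2 of 4, against 47.4%.

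Against the parental species, 1 of 3 members lay beyond 2-fold in PAA over PP, where 29.9% of 137 probes did, and 2 of 3 did not overlap, against 50.4%. In PA over PP these were 1 of 3, against 25.2% of 131 probes, and 2 of 3, against 38.9%. In AA over PP 0 of 3 lay beyond 2-fold, against 24.6% of 130 probes, and 3 of 3 did not overlap, against 47.7%. Shares over 3 or 4 members are coarse. The median difference of the members was -0.11 in PAA over PA, 0.52 in PAA over AA, 0.58 in PAA over PP, 0.64 in PA over AA, 0.46 in PA over PP and 0.46 in AA over PP. The medians over all zebrafish probes were 0.02, 0.12, 0.09, 0.01, 0.02 and 0.01 in that order. These pairs share arrays, so they are no separate evidence.

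If the A and P genomes each gave what they give in AA and PP, a hybrid would lie between the parental values by its share of genomes. For this additive expectation signals were scaled to the total zebrafish signal of each array. The dre-miR-451 signal was 346 in PAA against 151 expected, a log2 difference of 1.19, and 411 in PA against 144.3 expected, a difference of 1.51. Both hybrids thus exceeded AA (165) as well as PP (123), and lay outside the range of the non-hybrid forms. This contrast is also that between the slides, so slide and hybrid state cannot be told apart in it. The probe named for human and chicken miR-451, described below, showed no excess of the hybrids over PP. The dre-miR-126 signal was 336 in PAA against 228 expected (0.56) and 360 in PA against 258 expected (0.48), near the PP value of 350.4. For dre-miR-145 the hybrids read 189 against 152 expected (0.32) in PAA and 198 against 151 expected (0.40) in PA. In each hybrid 1 of 3 members was beyond 2-fold of the expectation, where 10.5% of 124 probes were in PAA and 12.1% of 116 in PA. The median of those probes was 0.19 in PAA and 0.14 in PA. The dre-miR-451 value of PAA fell short of 2-fold with quantile normalization, at 0.92. That of PA fell to 1.05 without spots of high local background. The AA and PP terms were below the BLANK levels of their arrays for all 3 members.

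**Figure D3:**
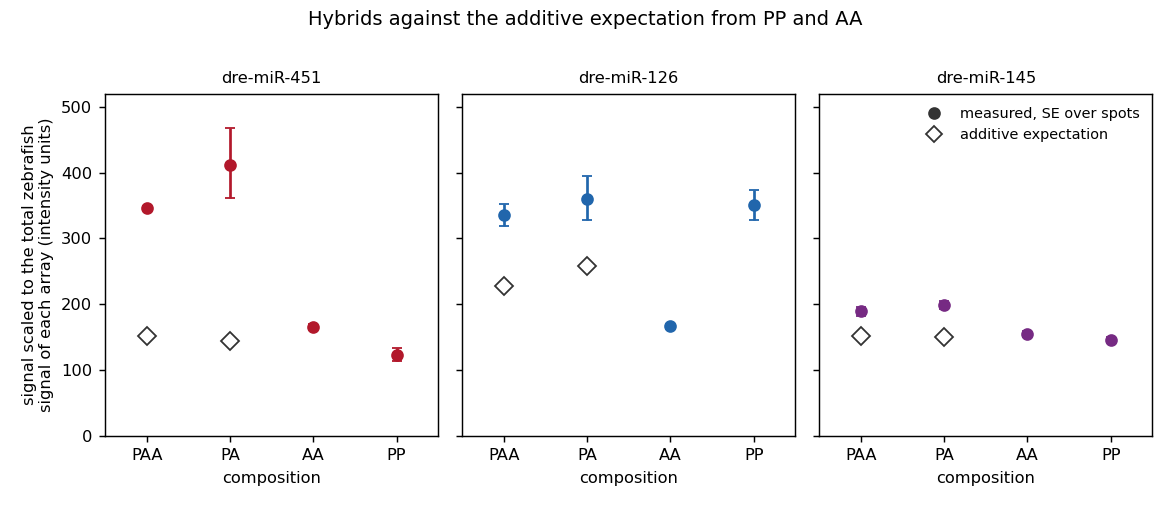
Signal scaled to the total zebrafish signal of each array (intensity units) for the 3 members detected on all 4 arrays, with bars for the SE over spots where they are larger than the symbol; open diamonds mark the additive expectation for PAA and PA. The dre-miR-451 points of PAA (346) and PA (411) stand above the diamonds (151 and 144.3), and the dre-miR-126 points of PAA and PA lie near that of PP (350.4).

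The chip also holds probes for the same miRNAs that carry no zebrafish name, which gave a second reading on the same arrays but not a replicate of a composition. The probe named for human and chicken miR-451 (hsa-miR-451) read 158 in PAA, 151 in PA and 151 in PP, and only 1 of its spots passed in AA. Its total-scaled differences were -0.03 ± 0.38 in PAA over PA, -0.08 ± 0.27 in PAA over PP and -0.05 ± 0.27 in PA over PP. This probe therefore did not show the excess over PP of the zebrafish-named probe, whose total-scaled differences were 1.49 ± 0.12 in PAA and 1.74 ± 0.22 in PA. The PP spots of hsa-miR-451 covered 30 to 40 pixels, those of dre-miR-451 only 1 to 5. In the hybrids the areas went the other way. The kept hsa-miR-451 spots covered 46, 3 and 4 pixels in PAA and 1 to 10 in PA, those of dre-miR-451 52 to 72. A PAA spot of hsa-miR-451 that read 500 and covered 68 pixels was set aside. Both probes were below the BLANK level in PP, and hsa-miR-451 was also below it in PA.

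The mammalian probe mmu-miR-143 was far above the BLANK level on every array, with 27989 in PAA, 31998 in PA, 23046 in AA and 23668 in PP. Scaled to total signal, it was lower in PAA over PA (-0.28 ± 0.07). It was higher in PAA over AA (0.19 ± 0.05), in PA over AA (0.47 ± 0.07) and in PA over PP (0.38 ± 0.11). In PAA over PP (0.10 ± 0.10) and AA over PP (-0.09 ± 0.10) it was within its SE. The medians of all zebrafish probes on that scale were -0.13, 0.20, 0.32, -0.004, 0.02 and -0.18 in that order. The value of PAA over AA was thus near the median of all probes. The mmu-miR-143 probe gave signal in PP, where the zebrafish-named probe was not detected. On the other arrays that probe read only 184 in PAA, 228 in PA and 128 in AA. Whether the mmu-miR-143 signal is specific to miR-143 of these fish was not tested. On each array at least 1 of the 4 mmu-miR-143 spots did not count (0 in PAA and AA, 2635 in PA, 27838 and 3640 in PP), and in PP 2 spots were left.

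The mean of the probe mmu-miR-145 was above the BLANK level on all arrays, and it was brightest in PAA. In PP the spots of 507 and 473 lay below that level (516). The AA value rests on 2 kept spots, as spots of 782 and 823 were set aside. The mmu-miR-145 probe had these means. It read 1370 in PAA, 811 in PA, 715 in AA and 558 in PP, and the lowest PAA spot, 1216, exceeded the highest kept PA spot, 939. PAA exceeded PA by 0.67 ± 0.17, AA by 0.85 ± 0.08 and PP by 1.15 ± 0.13 on the total-scaled log2 scale. PA over PP was 0.48 ± 0.20, PA over AA 0.18 ± 0.16 and AA over PP 0.31 ± 0.12. All zebrafish probes had medians of -0.13, 0.20, 0.02, -0.004, 0.32 and -0.18 in these pairs, in that order. The zebrafish-named probe had PAA over PA at -0.07 ± 0.07 on the same scale, so both readings of miR-145 parted between the hybrids. Both had their lowest value in PP. For the zebrafish-named probe, however, AA over PP was only 0.09 ± 0.06 on that scale, and the raw spots of AA and PP overlapped. The mmu-miR-144 probe was detected only in PP, at 117, below the BLANK level of that array. The star strand dre-miR-126* was detected in PAA (163) and PA (338) from 2 spots each, with spots of 1 pixel in PAA. Its passing PA spots, 531 and 215, stood on local backgrounds of 217 and 168, and its other PA spots read 44 and 67.

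**Figure D4:**
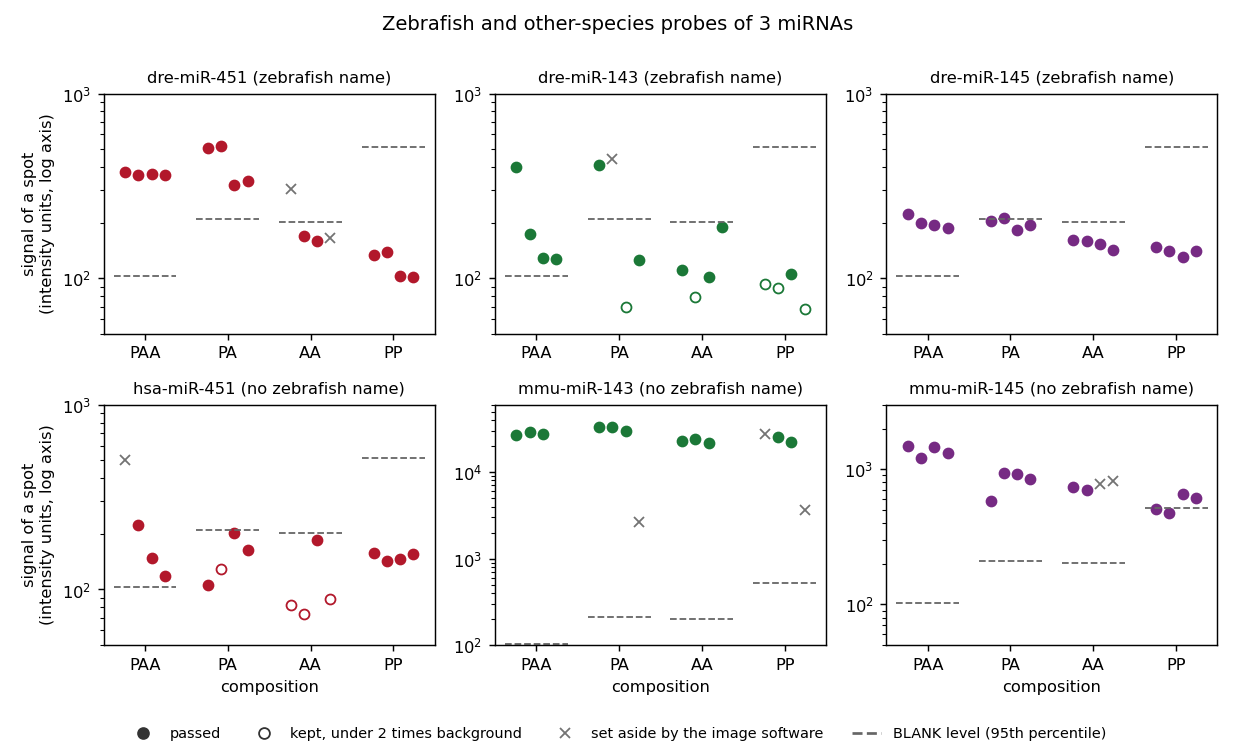
Signal of every spot (intensity units, log axis) of the zebrafish-named probes of miR-451, miR-143 and miR-145 (upper row) and of the probes of the same miRNAs with no zebrafish name (lower row) in PAA, PA, AA and PP, with marks and dashed BLANK levels as in the plot of all member spots; spots that read 0 (mmu-miR-143, 1 each in PAA and AA) are not drawn. The hybrids' excess over PP in dre-miR-451 is not seen in hsa-miR-451, and mmu-miR-145 is brightest in PAA (1370).

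Other miRNAs of blood and vessels were read from lists beside the members. Of the vessel list, dre-miR-222, known from endothelium and red cell precursors in mammals, read 411 in PAA, 338 in PA, 345 in AA and 164 in PP, and its relative dre-miR-221 was detected on none. The normalized difference of dre-miR-222 was -0.20 in PAA over AA and -0.39 in PA over AA, opposite in sign to the values of dre-miR-126 in the same pairs (0.67 and 0.74), and 1.27 in PAA over PP, 1.07 in PA over PP and 1.46 in AA over PP. The vessel list thus did not move as a unit.

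White cells, which travel with red cells in blood, were covered by 6 leukocyte probes, of which 5 were detected in PAA, 3 in PA, 4 in AA and 5 in PP. Their summed signal was 2072 in PAA, 1678 in PA, 1993 in AA and 1388 in PP. Each sum covers only the probes detected on that array, so the sums do not compare like with like. The largest part of each was dre-miR-155, of activated lymphocytes and macrophages, which read 1320 in PAA, 1379 in PA, 986 in AA and 660.3 in PP. Its differences were 0.14 in PAA over AA, 0.34 in PA over AA, 0.52 in PAA over PP and 0.72 in PA over PP. Those of dre-miR-142a-3p, found across blood cells, were -0.04 to 0.20 over the 6 pairs, and dre-miR-150 of mature lymphocytes was brightest in AA (619, 2 spots). The median leukocyte difference was 0.14 in PAA over AA (3 measured), -0.02 in PA over AA (3), 0.14 in PAA over PP (4) and -0.04 in PA over PP (3), against 0.71, 0.86, 1.48 and 1.63 for dre-miR-451. In AA over PP it was 0.75 (4 measured, 3 higher), where dre-miR-451 was at 0.77. No leukocyte probe lay near that median. The values were -0.02 for dre-miR-142a-3p, 0.38 for dre-miR-155, 1.13 for dre-miR-142a-5p and 2.27 for dre-miR-150, the last from 2 spots an array. The dre-miR-142a-5p probe was brightest in AA (255), at -1.12 in PAA over AA, opposite in sign to dre-miR-451. The dre-miR-223 probe was detected in PAA and PP only. The part of blood left in the organs in the dre-miR-451 values was not tested.

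Markers of the dissected organs, of which those named were picked after their values were seen, also differed among the pools. Among the skeletal muscle probes dre-miR-1 read 1262 in PAA, 782 in PA, 479 in AA and 276 in PP. Its PAA over PP was 2.15 and its PA over PP 1.40. The median of the muscle list was 0.32 in PAA over PP (5 measured) and 0.37 in PA over PP (5). In each of these pairs 3 muscle probes were higher and 2 lower, with dre-miR-206 at -0.21 and -0.14. The brain miRNA dre-miR-9 was low in AA, like dre-miR-126, with 4010 in PAA, 4026 in PA, 2089 in AA and 3375 in PP. The other brain probes were mixed. The dre-miR-124 probe was detected on the other arrays but not in AA, and dre-miR-128 in AA and PP only. The dre-miR-138 probe read 3569 in PAA, 1329 in PA, 1911 in AA and 1564 in PP. The dre-miR-219 probe was brightest in AA (1691 in PAA, 1234 in PA, 2242 in AA and 852 in PP). The brain median was 1.09 in PAA over AA (3 measured), -0.43 in PA over AA (3) and 0.18 in AA over PP (4). Liver probes moved both ways in PAA over PP, with dre-miR-122 at 0.70 and dre-miR-194b at -0.63, and dre-miR-192 could show no difference, as the brightest probe on every array. Connective tissue probes had a median of 0.43 in PAA over AA (3) and 0.15 in PAA over PP (4). The part of unequal organ shares in the member values was not tested.

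Profiles over the arrays were compared with those of 113 further zebrafish probes detected on all 4, by the root mean square difference of the centred log2 values. Nearest to dre-miR-451 were dre-miR-25 (0.19), dre-miR-430j (0.27) and dre-miR-454b (0.27), where the median probe was at 0.64. The dre-miR-25 probe read 477 in PAA, 574 in PA, 271 in AA and 193 in PP. Nearest to dre-miR-126 were dre-miR-92b (0.13), dre-miR-30e (0.14) and dre-miR-181a (0.15), with a median of 0.42. For dre-miR-145 these were dre-miR-181a* (0.09), dre-miR-212 (0.10) and dre-miR-27e (0.12), with a median of 0.34. With 4 arrays that share labelling and slides, such likeness is a description only.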

How the data were processed

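The authors labelled pooled total RNA of each composition with Cy3-ULS, hybridized it to a multi-species miRNA chip, scanned it on an Agilent scanner and read the images in QuantArray. The deposited scanner files hold foreground and background intensity per spot, not background-subtracted per the file headers. They also hold other values, an Ignore Filter of 1 or 0 and a spot area. No source used here gives the meaning of the filter, and 1 was read as kept. A value table of the authors, on a linear intensity scale, served as an alternative, with all 4 columns used. Its centring and array factors are not known here.

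Local background was subtracted, spots filtered at 2 times background, and the log2 signals of passing spots averaged. Pairs were compared after quantile normalization of the detected zebrafish probes, additivity and other-species probes after scaling to the total signal. The thresholds were 2 passing spots, 2-fold, and the 95th percentile of BLANK spots. Text names all 5 members, list probes by counts and medians with values for some, and 3 nearest profiles for each of the 3 members detected on all arrays. Members and lists were chosen with earlier results of these data known. As each composition had 1 array, no test was run, and precision is limited by that number. Simulated 4-fold changes were used to check the script. The tools were Python 3.11.15, numpy 2.4.6, pandas 2.3.3, R 4.3.3 and limma 3.58.1, the last for normexp with an offset of 50. There were 10 planned and 5 added alternatives.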

Additional observations from a re-analysis of the deposited data

Results flagged for a closer look

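Probes of the same miRNAs that carry no zebrafish name gave signal above the BLANK level outside the main measurement. The mmu-miR-143 probe read 27988.8 in PAA, 31997.6 in PA, 23045.8 in AA and 23668.1 in PP, and the mmu-miR-145 probe read 1370 in PAA, 811.4 in PA, 715.3 in AA and 558.4 in PP. The hsa-miR-451 probe was above that level in PAA only, at 157.6. Whether these probes bind the fish miRNAs better than the zebrafish-named ones was not tested, and no test of their differences between compositions was possible.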

How the results depend on the processing

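The dre-miR-451 differences beyond 2-fold kept their sign and stayed beyond 2-fold under all 12 alternatives that gave a value. They ranged over 1.09 to 1.74 in PAA over PP and over 1.24 to 1.86 in PA over PP. The filters at the BLANK level gave no value there, as the PP signal of this probe was below that level. The excess over the additive expectation stayed beyond 2-fold under all 12 for PA (1.05 to 1.82) and under 8 of 12 for PAA (0.76 to 1.30). No called difference was reversed. The dre-miR-451 and dre-miR-126 differences over AA kept their sign under all 12, with ranges of 0.38 to 1.16 and 0.47 to 1.11 in PAA, and 0.67 to 1.32 and 0.52 to 1.12 in PA, and so did AA over PP for dre-miR-451 (0.41 to 1.11) and dre-miR-126 (-1.33 to -0.25). The dre-miR-145 difference of PAA over PP ranged over -0.03 to 0.69, and that of AA over PP over -0.08 to 0.87.

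The number of members beyond 2-fold, 0 in PAA over AA, was 2 of 4 with total signal scaling and with no scaling. The shares of all zebrafish probes were then 12.9% and 13.6%. With spots of the last 3 array rows only it was 1 of 5, against 15.8%. That call was dre-miR-144, from passing spots of 580 in PAA and 115 in AA. There dre-miR-451, dre-miR-126, dre-miR-143 and dre-miR-145 were at 0.79, 0.53, -0.13 and 0.28. In PA over AA, also 0, the number was 2 of 4 with total signal scaling, scaling on Homo spots and no scaling. The shares of all probes were then 13.5%, 11.3% and 14.3%. With spots of the first 3 array rows it was 1 of 4, against 16.9%. In AA over PP, 0 as well, it was 1 of 3 with set-aside spots included, against 32.7% of all probes. Total signal scaling, scaling on Homo spots and no scaling also gave 1 of 3, against 24.6% each. So did leaving out spots of high local background (23.6%) and using only the first 3 array rows (30.9%). With the last 3 array rows the number was 1 of 4, against 27.0%. In PAA over PP it was 2 instead of 1 with no filter on dim spots. For PAA over the additive expectation it was 0 instead of 1 with median scaling, quantile normalization, scaling on Homo spots and the authors' value table. In PAA over PA it was 2 of 3 when only probes above the BLANK level counted and were normalized anew, instead of 0 of 4. That put the median of all 85 probes left at 1.13 and 56.5% of them beyond 2-fold. With the normalization kept the number of members was 0. Such a filter left no member to compare with AA or PP. The cause of these shifts was not tested otherwise.

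Scaling on Homo spots moved the median of all probes to -0.43 in PAA over PA and -0.39 in PAA over PP, median scaling to -0.35 in PAA over AA, and total signal scaling to 0.32 in PA over AA. Against that shift dre-miR-451 still stood above it in PAA over PP, at 1.09. The sets of array rows, the local background filter, the additive quantile fit and the BLANK filter with normalization kept were chosen after seeing the data. No paired analysis was possible because each composition had 1 array and no test was made.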
